A study of Homo sapiens with 4 samples.

Results

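The myeloid lineage genes described here are SPI1, CEBPA, IRF8, CSF1R and MPO. They were chosen by name, each as a window on the hg19 build of the human genome, to ask whether DPF2 or H3K14cr marks genes of another blood lineage in K562 cells. The 5 windows hold 275 tiles of 1 kb, all with at least 1 read, out of 2598309 such tiles in the genome. The SPI1 window is chr11:47370001-47425000, the CEBPA window chr19:33750001-33800000, the IRF8 window chr16:85925001-86000000, the CSF1R window chr5:149430001-149500000 and the MPO window chr17:56340001-56365000.

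Chromatin immunoprecipitation followed by sequencing (ChIP-seq) was used to map the chromatin protein DPF2 and H3K14cr, the crotonylated form of lysine 14 on histone H3. All libraries came from wild-type K562, an established human chronic myeloid leukaemia line with an erythroid and megakaryocytic character, with no treatment named. There were 2 libraries for the DPF2 antibody and 2 for the H3K14cr antibody, and no input or control-antibody library was analysed here. The labels do not say whether the libraries came from separate cultures. Over all covered tiles, and over the member tiles alone, the spread between the 2 libraries of each antibody was within sampling noise, so each pair was counted as 1 sample (n = 1) and its values are printed library by library.

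For DPF2, replicate 1 held 7787444 reads and replicate 2 held 13317496. For H3K14cr, replicate 1 held 10880366 reads and replicate 2 held 17369133. At that depth an average covered tile held 2.997, 5.13, 4.19 and 6.69 reads, in the same order. Paired values below give replicate 1 first. The identity of the line could be checked only at the level of DNA: the BCR side of the known amplicon on chromosome 22 stood at 8.80 to 9.45 times the genome mean, and the 9p21 region that K562 lacks at 0.0 to 0.00667 times. The labels give no expression data, so no lineage marker could be checked.

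The 5 genes act at successive levels of myeloid differentiation. SPI1 encodes PU.1, an ETS-family transcription factor of the monocyte, granulocyte and B cell lineages, which opposes the erythroid factor GATA1. CEBPA encodes a leucine zipper factor needed for granulocyte precursors, and IRF8 an interferon regulatory factor of monocytes and dendritic cells. CSF1R, a target of PU.1, is the receptor tyrosine kinase for the macrophage growth factor, and MPO, the peroxidase of neutrophil granules, is an effector gene. DPF2 belongs to the BAF family of chromatin remodellers and reads acylated histone H3 tails through a double PHD finger, and H3K14cr is an acyl mark associated with active chromatin.

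The results turn on start regions, so the 250 bases upstream of a start are shown for CEBPA, whose start-site tile was enriched for H3K14cr, and for CSF1R, whose start-site tile was not. The sequences are from RefSeq on GRCh38.p14, written 5' to 3' on the minus strand that both genes use, and capitals mark CpG dinucleotides. RefSeq entries matched 3 of the 5 genes (CEBPA, CSF1R and IRF8). The CEBPA sequence is chr19:33302535-33302784, the upstream CSF1R sequence chr5:150113366-150113615 and the CSF1R sequence at a start inside the gene chr5:150086555-150086804. These positions were not placed on hg19.
CEBPA: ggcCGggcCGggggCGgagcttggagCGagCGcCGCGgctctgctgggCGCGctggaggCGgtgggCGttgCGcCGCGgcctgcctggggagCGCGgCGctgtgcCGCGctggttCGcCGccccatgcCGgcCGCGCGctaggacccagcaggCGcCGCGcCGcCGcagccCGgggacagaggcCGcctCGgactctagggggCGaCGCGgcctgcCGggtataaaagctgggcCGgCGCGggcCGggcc
CSF1R upstream start: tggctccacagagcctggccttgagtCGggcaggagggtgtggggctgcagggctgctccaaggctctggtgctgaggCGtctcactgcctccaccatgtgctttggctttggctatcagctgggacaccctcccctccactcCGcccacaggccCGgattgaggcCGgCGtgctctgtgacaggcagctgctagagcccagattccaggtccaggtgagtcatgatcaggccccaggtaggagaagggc
CSF1R inner start: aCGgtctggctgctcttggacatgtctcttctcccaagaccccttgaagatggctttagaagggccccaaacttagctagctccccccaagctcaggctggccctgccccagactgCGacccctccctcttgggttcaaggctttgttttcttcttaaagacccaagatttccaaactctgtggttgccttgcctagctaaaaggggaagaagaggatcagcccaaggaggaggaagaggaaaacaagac

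The CEBPA sequence holds 41 CpG dinucleotides and is 81.2% G and C. The CSF1R sequences hold 6 and 2 CpG dinucleotides and are 64.4% and 53.2% G and C. The median over 35116 RefSeq sequences of the same length is 11 CpG dinucleotides and 58.0% G and C, which places CEBPA above that median and the inner CSF1R start below it on both measures. The PU.1-type motif GAGGAA, searched on both strands, occurs in the inner CSF1R sequence in 2 adjacent copies near its 3' end, in neither of the other printed sequences, and in 23.6% of all 35116. The C/EBP-type motif TTGCNNAA, present in 9.05% of them, and the GATA-type motif GATAA, present in 20.4%, occur in none of the printed sequences. An IRF8 sequence that is not printed, chr16:85902580-85902829, holds 1 GATAA match. A match is a description of the letters and not of a bound site.

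H3K14cr was enriched in 3 tiles of the 5 windows, at or beside the starts of the transcription factor genes SPI1 and CEBPA, and DPF2 in 0. The DPF2 count depended on the tile borders at 1 place: with tiles shifted by 500 bp, the SPI1 start was enriched for both antibodies. To be called, a tile had to reach 3 times background and, in a one-sided Poisson test with Benjamini-Hochberg adjustment, an adjusted p no higher than 0.001, in both libraries of the antibody. Background was the larger of the mean of the chromosome and the mean of the surrounding 20 kb, so that a broad rise counts as background and only a narrow one can be called. Over the genome 0.215% of covered tiles were enriched for DPF2, and 0 of the 275 member tiles were. For H3K14cr the share was 0.416% over the genome and 1.09% over the member tiles (3 of 275). Enrichment for both antibodies was found in 0.16% of all tiles and in 0 member tiles. On the shifted tiles, a setting added after seeing the data, the members had 1 DPF2 tile and 2 H3K14cr tiles, beside 0.212% and 0.415% of all tiles.

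The 5 windows differed from each other in where their highest tiles lay. One SPI1 tile and 2 CEBPA tiles were enriched for H3K14cr, and 0 tiles in the IRF8, CSF1R and MPO windows were. Among windows of the same lengths tiled over the genome, 15.6% of 55 kb windows (the length of SPI1) and 14.5% of 50 kb windows (CEBPA) held at least 1 tile enriched for H3K14cr. The shares for the lengths without one here were 19.8% of 75 kb windows (IRF8), 18.8% of 70 kb windows (CSF1R) and 8.05% of 25 kb windows (MPO). For DPF2, an enriched tile was found in 4.8% of windows of 25 kb, 8.94% of 50 kb, 9.7% of 55 kb, 11.9% of 70 kb and 12.6% of 75 kb, so a window without one was the usual case at every length. With the libraries of an antibody summed before calling, the members again had 0 DPF2 and 3 H3K14cr tiles, beside 0.54% and 0.65% of all tiles. At a threshold of 2-fold they had 0 and 6, beside 0.259% and 0.6%. Most member tiles lay near background: the fold in the lower library was under 2 in 269 of 275 tiles for DPF2 and in 268 for H3K14cr.

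**Figure D1:**
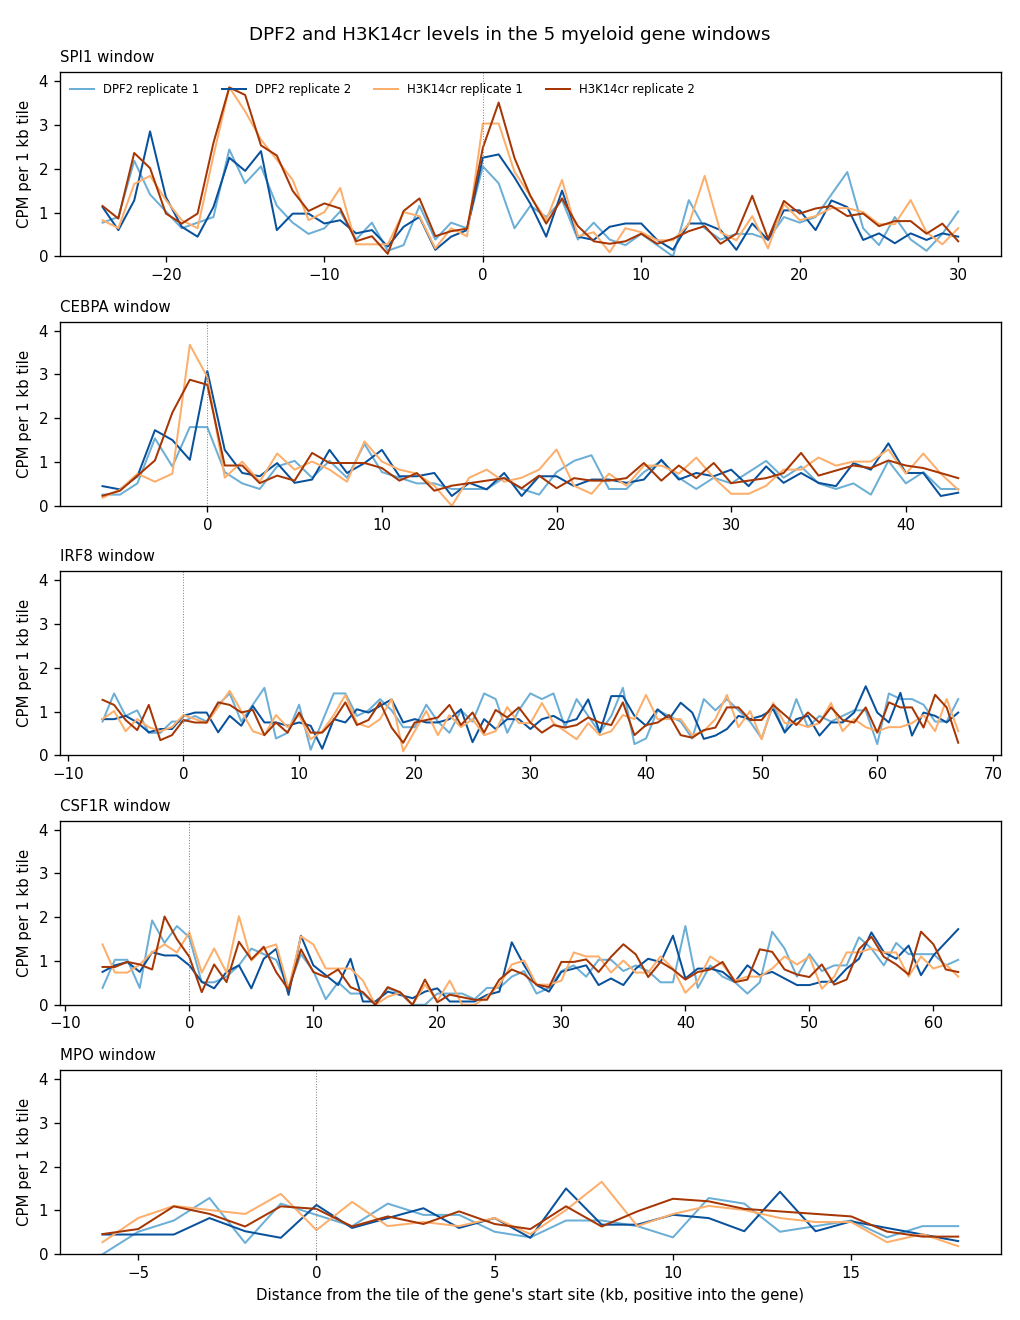
Reads scaled to a library of 1000000 reads (CPM) in each 1 kb tile of the 5 windows against the distance from the tile of the gene's start site in kb, positive into the gene, with 1 line per library. SPI1 and CEBPA rise at the start in the 4 libraries and SPI1 again 13 to 17 kb upstream, where H3K14cr stands above DPF2, while IRF8 and MPO show no such rise.

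At SPI1 both antibodies rose at the start, and the call depended on where the tile borders fell. In the tile chr11:47399001-47400000, which lies 1 kb into the gene from the tile of the start site, the H3K14cr libraries held 33 and 61 reads, or 3.03 and 3.51 CPM (reads scaled to a library of 1000000 reads). The DPF2 libraries held 13 and 31 reads, or 1.67 and 2.33 CPM. Both H3K14cr libraries were above both DPF2 libraries, in a tile named for its H3K14cr call, and the share of all tiles with this order was not counted. The H3K14cr folds over background were 3.53 and 4.22 (Poisson adjusted p of 4.16e-07 and 3.93e-17), and this was the SPI1 tile called enriched. The DPF2 folds there were 2.36 and 2.995 (adjusted p of 0.284 and 3.79e-05), below the threshold in both libraries. Positions of start sites were taken from general knowledge of hg19 and were not checked against an annotation, which was not used here.

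The neighbouring tile chr11:47400001-47401000, which holds the SPI1 start, was the member tile nearest to a DPF2 call. Its DPF2 reads numbered 16 and 30, with folds of 2.91 and 2.82. Its H3K14cr reads numbered 33 and 43, with folds of 3.40 and 2.66, so 1 H3K14cr library passed the threshold and the other did not. Pooled over the libraries, the fold was 2.85 for DPF2 (95% exact Poisson interval 2.09 to 3.80) and 2.94 for H3K14cr (2.32 to 3.68). Both intervals span the threshold of 3, and they cover counting error only. When the borders were moved by 500 bp, the tile chr11:47399501-47400500 held 22 and 42 DPF2 reads and 39 and 57 H3K14cr reads. There the DPF2 folds were 4.31 and 4.22 (Poisson adjusted p of 1.54e-05 and 3.23e-11) and the H3K14cr folds 4.13 and 3.80 (2.69e-10 and 4.17e-14), and the tile was enriched for both antibodies. The DPF2 reads at the SPI1 start were split between 2 tiles by the unshifted borders.

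In bins of 500 bp the profiles at the SPI1 start differed most just upstream of the start. For DPF2 the bin that holds the start, chr11:47400001-47400500, was the highest of those around it, with 14 and 25 reads, or 3.60 and 3.75 CPM per kb. The bin just upstream held 2 and 5 DPF2 reads, 0.514 and 0.751 CPM per kb, so the DPF2 level fell away on that side within 500 bp in both libraries. For H3K14cr the bin of the start held 21 and 23 reads, 3.86 and 2.65 CPM per kb, and the upstream bin 12 and 20 reads, 2.21 and 2.30 CPM per kb. Into the gene the DPF2 level fell more slowly, and at 0.75 kb from the middle of the start tile it was 2.055 and 2.553 CPM per kb. The bin at 1.25 kb held 15 and 27 H3K14cr reads (2.76 and 3.11 CPM per kb) against 5 and 14 DPF2 reads (1.28 and 2.10 CPM per kb). At 2.25 kb DPF2 stood at 0.77 and 1.80 CPM per kb and H3K14cr at 1.65 and 2.07, so the libraries overlapped there. These bins were chosen after their values were seen, and no test was made on them.

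**Figure D2:**
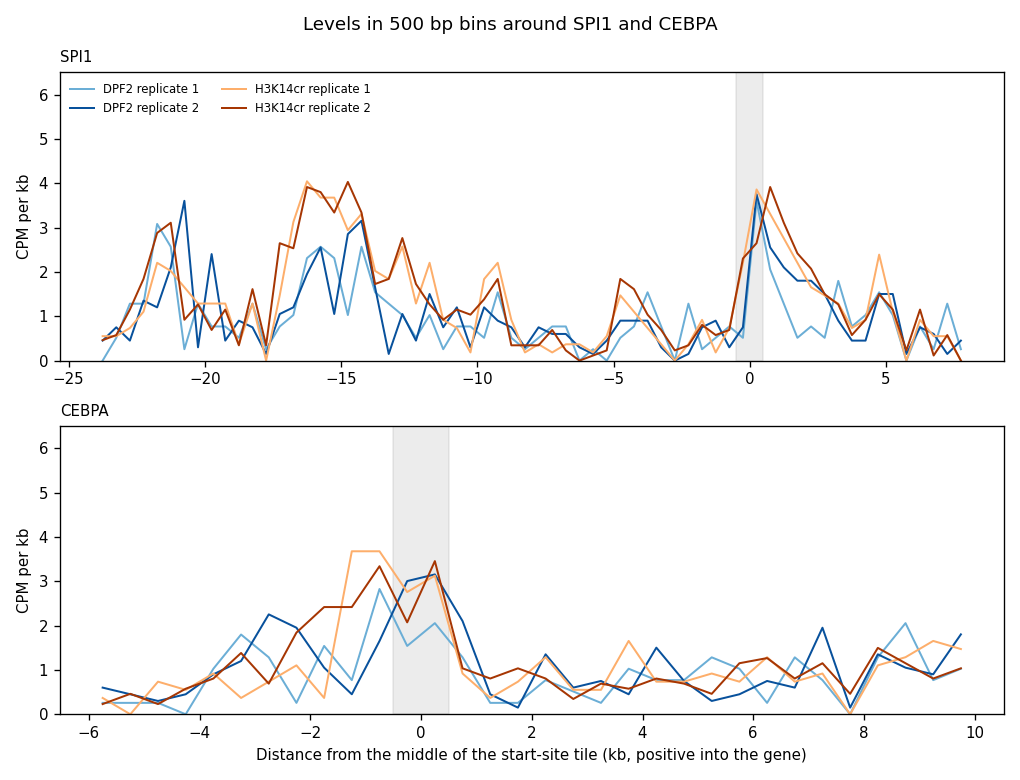
CPM per kb in bins of 500 bp around SPI1 and CEBPA against the distance from the middle of the start-site tile in kb (grey band: the tile; 1 line per library). At the SPI1 start the DPF2 lines peak at 3.60 and 3.75 and fall to 0.514 and 0.751 in the bin upstream. Into the gene both H3K14cr lines lie above both DPF2 lines from 0.75 to 1.75 kb. At 2.25 kb DPF2 replicate 2 (1.80) is above H3K14cr replicate 1 (1.65). At CEBPA, 1.25 kb upstream of the middle of the start tile, the H3K14cr lines stand at 3.68 and 2.42 against 0.77 and 0.451 for DPF2.

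A broad stretch of H3K14cr lay upstream of SPI1, 13 to 17 kb from the start-site tile, and no tile of it was called. Its highest tile, chr11:47416001-47417000, held 42 and 67 H3K14cr reads and 19 and 30 DPF2 reads. The H3K14cr folds were 2.93 and 2.80 over the surrounding 20 kb but 9.47 and 9.45 over the mean of chromosome 11, so this tile stood higher above the chromosome than the called tile at the start (7.44 and 8.60). It was the member tile just outside the H3K14cr threshold. The DPF2 folds in it were 2.57 and 2.19 over background and 6.06 and 5.60 over the chromosome mean. In the tile next to it, chr11:47415001-47416000, the H3K14cr libraries held 36 and 64 reads and the DPF2 libraries 13 and 26.

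With the chromosome mean alone as background, 12 SPI1 tiles were enriched for H3K14cr and 3 for DPF2. The DPF2 tiles were the start-site tile and the upstream tiles that begin at 47414001 and 47416001, with folds in the lower library of 5.10, 5.10 and 5.60. Under that background 1.11% of all covered tiles were enriched for DPF2 and 2.12% for H3K14cr. In the 4 libraries the whole SPI1 window stood at 2.23 and 2.31 (DPF2) and 2.89 and 2.95 (H3K14cr) times the genome mean. The 100 kb on each side stood at 1.58 to 1.87 times. A level as high was found in 5.09% of 55 kb windows of the genome for DPF2 and in 2.93% for H3K14cr.

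CEBPA carried H3K14cr over its start-site tile and the tile just upstream. The upstream tile, chr19:33794001-33795000, held 40 and 50 H3K14cr reads (3.68 and 2.88 CPM) and 14 and 14 DPF2 reads (1.80 and 1.05 CPM). The groups did not overlap, in a tile named for its H3K14cr call, and the share of all tiles with this order was not counted. The H3K14cr folds were 4.68 and 3.32 (Poisson adjusted p of 3.73e-12 and 2.51e-10) and the DPF2 folds 2.14 and 1.14 (0.38 and 1). In the 500 bp bin 1.25 kb upstream of the middle of the start tile, the DPF2 libraries held 3 and 3 reads where the H3K14cr libraries held 20 and 21. That bin was also chosen after its values were seen.

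The CEBPA start-site tile, chr19:33793001-33794000, held 32 and 48 H3K14cr reads and 14 and 41 DPF2 reads. The H3K14cr folds of 3.39 and 3.06 were both past the threshold, the second of them the member value just inside it. DPF2 stood at 3.52-fold in replicate 2 (adjusted p of 9.81e-09) and at 2.06-fold in replicate 1 (0.465), so the tile was called in the deeper DPF2 library and not in the shallower one. It was the 1 member tile on the unshifted borders with a DPF2 call in any library. On the shifted borders the tile chr19:33793501-33794500 held DPF2 folds of 2.58 and 2.59, below the threshold, and H3K14cr folds of 3.83 and 3.01, past it. The pooled DPF2 fold was 2.98 (95% exact Poisson interval 2.25 to 3.88) and the pooled H3K14cr fold 3.18 (2.52 to 3.96), intervals that overlap over most of their length. The ratio of DPF2 to H3K14cr in pooled CPM was 0.92 in this tile (95% exact binomial interval 0.641 to 1.31) and 0.416 in the upstream tile (0.262 to 0.643).

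Away from its start the CEBPA window had no enriched tile. In its blocks of 5 kb other than the one that holds the start, the libraries ran from 1.09 to 2.53 times the genome mean. The window stood at 1.82 and 2.03 (DPF2) and 2.20 and 2.17 (H3K14cr) times the genome mean, but only at 1.06 to 1.22 times the mean of chromosome 19, which is high in these libraries. With the chromosome mean alone as background, the same number of tiles, 2, was enriched for H3K14cr, and 0 for DPF2.

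The IRF8 window had no tile near the threshold for either antibody. Its start-site tile, chr16:85932001-85933000, held 6 and 12 DPF2 reads and 10 and 14 H3K14cr reads, and all 4 folds lay between 0.923 and 1.15. The highest tile for DPF2 by its lower library, chr16:85970001-85971000, reached folds of 1.69 and 1.62 and lies 38 kb into the gene's direction from the start-site tile. For H3K14cr the highest was chr16:85946001-85947000, at 1.84 and 1.55. The window level was 2.42 and 2.16 times the genome mean for DPF2 and 2.01 and 2.13 for H3K14cr. It was 2.16 to 2.27 times in the 100 kb at lower coordinates and 1.82 to 1.99 times in the 100 kb at higher coordinates.

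IRF8 was the member window where both DPF2 libraries exceeded both H3K14cr libraries. The pooled ratio was 1.08 (95% exact binomial interval 1.01 to 1.16). Over the genome 45.4% of 75 kb windows had this order, and 34.3% of 25 kb windows, so it was the commoner order at each length. In the other four windows both H3K14cr libraries were above both DPF2 libraries, an order found in 21.1% (55 kb), 20.9% (50 kb), 22% (70 kb) and 19% (25 kb) of windows of the same lengths. Their pooled ratios were 0.779 for SPI1 (0.720 to 0.842), 0.895 for CEBPA (0.817 to 0.980), 0.937 for CSF1R (0.867 to 1.01) and 0.871 for MPO (0.763 to 0.994). With 2 libraries against 2, an exact two-sided permutation test cannot go below p = 0.33.

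CSF1R, the growth factor receptor, had no enriched tile. Its start-site tile, chr5:149492001-149493000, held 12 and 12 DPF2 reads and 18 and 19 H3K14cr reads, with folds of 1.68, 1.03, 1.48 and 1.09. The highest tile by the lower library was the same for both antibodies, chr5:149483001-149484000, 9 kb into the gene, at 1.88 and 2.69 for DPF2 and 1.84 and 1.90 for H3K14cr. A tile 26 kb into the gene, chr5:149466001-149467000, reached 3.33-fold in DPF2 replicate 2 with 19 reads and an adjusted p of 0.00128, just short of the threshold. It held 5 reads in DPF2 replicate 1, a fold of 1.32, and 10 and 14 reads in the H3K14cr libraries, folds of 1.74 and 1.41. The tile was picked out after its values were seen. Whether it holds the inner CSF1R start printed above was not determined, since positions were not carried between builds.

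The CSF1R window also held the lowest levels of the members. In the blocks of 5 kb that begin at 149470001 and 149475001, the 4 libraries stood at 0.40 to 0.573 and at 0.601 to 0.955 times the genome mean. In the block from 149490001, which holds the start, they stood at 2.11 to 3.25 times. Both antibodies fell and rose together along the window, and how well reads can be mapped there was not tested. The window as a whole stood at 1.93 to 2.15 times the genome mean and the 100 kb on each side at 2.02 to 2.36 times.

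MPO, the effector gene, had no enriched tile. Its start-site tile, chr17:56358001-56359000, held 7 and 15 DPF2 reads and 6 and 18 H3K14cr reads. The DPF2 folds of 1.36 and 1.66 made it the highest DPF2 tile of the window by the lower library, and the H3K14cr folds were 0.694 and 1.41. The highest H3K14cr tile, chr17:56362001-56363000, stood at 1.73 and 1.82 with 12 and 19 reads. The window level, 1.87 and 1.83 times the genome mean for DPF2 and 2.09 and 2.14 for H3K14cr, was close to that of the 100 kb at lower coordinates, at 1.99 to 2.21 times. The 100 kb at higher coordinates stood at 3.47 to 4.38 times, with its highest block of 5 kb, from 56405001, at 13.97 to 15.35 times.

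**Figure D3:**
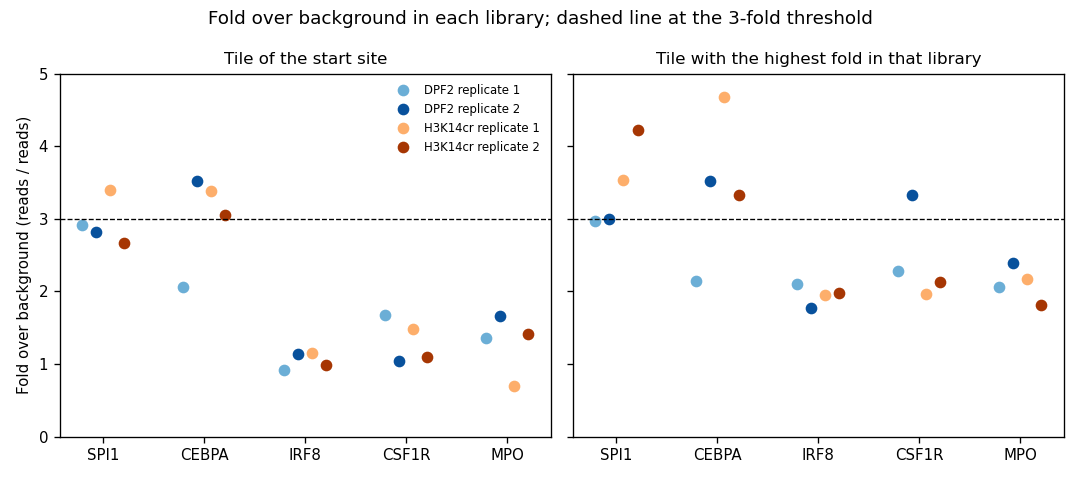
Fold over background (reads divided by background reads) in each library for the start-site tile of each gene (left) and for the tile with the highest fold in that library (right), 1 point per library, with a dashed line at the threshold of 3. H3K14cr passes the line in both libraries at the start-site tile of CEBPA, and at the highest tile of SPI1 and CEBPA, while no gene has both DPF2 points above it on these tile borders (on borders shifted by 500 bp, not plotted, SPI1 has, at 4.31 and 4.22).

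The order of the window levels depended on the antibody. For H3K14cr, SPI1 was highest and CEBPA (2.20 and 2.17) next, each without overlap with the windows below it, though CEBPA led by little. MPO (2.09 and 2.14), CSF1R (2.15 and 2.06) and IRF8 (2.01 and 2.13) overlapped with each other. For DPF2, IRF8 (2.42 and 2.16) and SPI1 (2.23 and 2.31) overlapped at the top, CEBPA and CSF1R overlapped below them, and MPO was lowest, within the spread of CEBPA. These levels are sums over DNA, and the copy number of each locus in K562, which is aneuploid, cannot be told apart from antibody signal without an input library. Set against its own chromosome's mean, SPI1 kept levels of 2.13 to 2.78, CSF1R 1.86 to 2.15 and IRF8 1.28 to 1.59, while CEBPA and MPO lay between 1.06 and 1.37.

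Of the 275 member tiles, 138 had a mean of at least 10 reads and could be tested for a difference between the antibodies, with limma on log2(CPM + 0.5) over 255612 tiles. H3K14cr was higher in 4 member tiles, 3 upstream of SPI1 and 1 upstream of CEBPA, and DPF2 was higher in 0. Over all tiles tested 1.19% were called higher in H3K14cr and 0.202% higher in DPF2. The median log2 difference, DPF2 minus H3K14cr, was -0.04 over member tiles and -0.11 over all tiles tested. By window the medians were -0.28 in SPI1 (27 tiles), -0.11 in CEBPA (17 tiles), -0.05 in CSF1R (37 tiles), -0.05 in MPO (12 tiles) and 0.14 in IRF8 (45 tiles). The largest member difference toward DPF2 was in the CEBPA tile that begins at 33796001, upstream of the start. It was 0.75 (SE 0.26, limma adjusted p = 0.1475) and was not called.

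The largest difference was in the SPI1 tile chr11:47413001-47414000, with 9 and 8 DPF2 reads (1.16 and 0.601 CPM) against 24 and 40 H3K14cr reads (2.21 and 2.30 CPM). Its log2 difference was -1.03 (SE 0.26, limma adjusted p = 0.0157). The CEBPA upstream tile described above differed by -0.99 (SE 0.24, limma adjusted p = 0.0113). The SPI1 tile chr11:47417001-47418000, with 7 and 15 DPF2 reads and 25 and 45 H3K14cr reads, differed by -0.96 (SE 0.25, limma adjusted p = 0.0229). The SPI1 tile that begins at 47415001 differed by -0.79 (SE 0.23, limma adjusted p = 0.0488). In each of the 4 tiles both H3K14cr libraries were above both DPF2 libraries. The tiles were picked by the test on these same libraries, so this order adds no separate support. The share of all tested tiles with this order was not counted. None of the 3 SPI1 tiles was enriched by the call against the surrounding 20 kb.

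Both the calls and the sizes depended on the setting, while the direction did not. For the SPI1 tile that begins at 47413001, the log2 difference ran from -0.57 (pseudocount of 2 CPM) to -1.48 (edgeR's quasi-likelihood test). With median-of-ratios size factors, which move the median of all tiles from -0.11 to 0.001, the log2 differences of the 4 tiles were -0.92, -0.87, -0.85 and -0.66 in the same order. With those factors 0 of the 138 member tiles passed in limma (lowest adjusted p 0.0804, 15 tiles at an unadjusted p under 0.05), beside 0.532% of all tiles tested. With TMM factors edgeR called 2, beside 0.815% of all tiles. Without H3K14cr replicate 1 the log2 differences of the 4 tiles were -1.05, -0.84, -1.03 and -0.86 in the same order. Without H3K14cr replicate 2 they were -1.0, -1.15, -0.89 and -0.72. Those fits leave H3K14cr with a single library. The CEBPA tile was called in 7 of 12 alternatives, with adjusted p from 0.000299 to 0.813. The SPI1 tiles that begin at 47413001, 47417001 and 47415001 were called in 6, 4 and 4 of 11, with adjusted p from 0.000983 to 0.63, from 0.0069 to 0.597 and from 0.0142 to 0.732. Since the 2 libraries of each antibody lay within sampling noise of each other, these p-values measure technical spread.

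Along the windows the antibodies followed each other most closely in SPI1. The Spearman correlation of pooled DPF2 with pooled H3K14cr reads over tiles was 0.831 in SPI1 (55 tiles), 0.687 in CSF1R (70 tiles), 0.579 in CEBPA (50 tiles), 0.574 in MPO (25 tiles) and 0.196 in IRF8 (75 tiles). Between the libraries of a single antibody it was 0.675 (DPF2) and 0.887 (H3K14cr) in SPI1 and 0.14 and 0.385 in IRF8. The IRF8 value between antibodies lay between the values within them. It is from pooled reads and they are from single libraries, so the values are not measured alike. Tiles share the libraries and the mappability of the DNA, so these values are descriptions with no test.

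In all, 14 windows were set beside the members: 9 other myeloid genes, 4 erythroid genes that K562 uses and an olfactory receptor cluster. Their positions came from general knowledge of hg19, with 50 kb around each gene. The windows of the other myeloid genes (CEBPE, CEBPB, ELANE, CSF3R, LYZ, CD33, CD14, ITGAM and GFI1) held 7 H3K14cr-enriched tiles of 439 (1.59%, in 5 of the 9 windows). They held 1 DPF2-enriched tile (0.228%, in the window of GFI1, a repressor of the granulocyte programme). The tiles of the comparison windows were not placed relative to the named genes, so they may lie at neighbouring genes. H3K14cr tiles also outnumber DPF2 tiles over the genome (0.416% against 0.215%), and the difference between the sets of genes was not tested. The erythroid genes (GATA1, TAL1, LMO2 and HBG1) held 0 enriched tiles of 195 for either antibody, and the olfactory cluster 0 of 857.

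The count at erythroid genes does not measure their level. TAL1, a factor of the erythroid programme, stood at 4.40 to 5.58 times the genome mean in the 4 libraries, above each of the 5 member windows, and GATA1 at 2.30 to 2.91 times. HBG1, a fetal globin gene, stood at 0.979 to 1.17 times, below each of them, and LMO2 had 4 DPF2 and 14 H3K14cr tiles against the chromosome mean where HBG1 had 0 and 0. With the chromosome mean alone as background, the erythroid genes had 28 DPF2 and 61 H3K14cr tiles (14.4% and 31.3% of their tiles) and the other myeloid genes 32 and 61 (7.29% and 13.9%). These shares depend on the level of each chromosome. The GATA1 window, with 10 and 19 of the tiles, stood at 4.156 to 5.765 times the mean of chromosome X. The CD33 window stood at 0.7772 to 0.8884 times the mean of chromosome 19. How far this enters the contrast between the sets was not tested. The members had 3 and 16 of 275, beside 1.11% and 2.12% of all tiles. Their DPF2 share was thus near that of the genome and their H3K14cr share above it. All 3 DPF2 tiles and 12 of the 16 H3K14cr tiles lay in the SPI1 window. The olfactory cluster had 0 and 0 and stood at 0.29 to 0.395 times its chromosome's mean. CSF3R, a granulocyte receptor gene, had 13 and 25 such tiles and stood at 4.13 to 5.28 times the genome mean, beside 14 and 28 tiles at TAL1. Broad and high levels were thus measured in the window of a gene of each lineage, and the members lay below both and above the olfactory cluster.

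**Figure D4:**
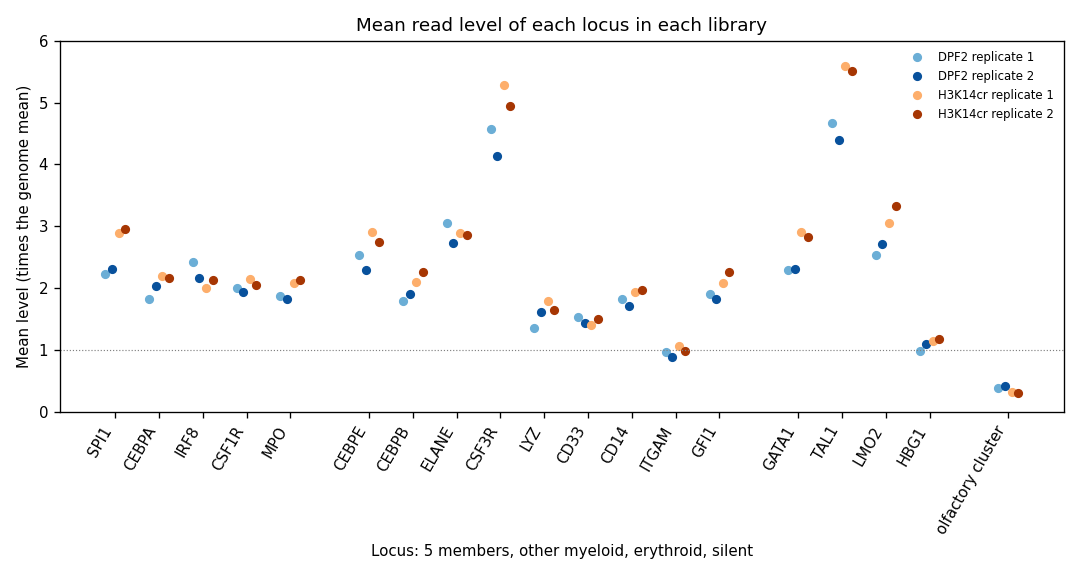
Mean level of each window in each library, as a multiple of the genome mean (dotted line at 1), with 1 point per library, for the 5 member genes, the 9 other myeloid genes, the 4 erythroid genes and the olfactory receptor cluster (marked silent). The members lie between 1.82 and 2.95, below TAL1 and CSF3R and above the olfactory cluster.

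By their highest fold for each antibody, the comparison window nearest to SPI1 was CD14, a monocyte receptor gene (distance 0.068 on the log2 scale), and next CEBPE (0.177). CEBPA was nearest to ELANE, the neutrophil elastase gene (0.349), and LMO2 (0.371). IRF8 was nearest to CD33 (0.149) and ITGAM (0.207), MPO to CD33 (0.243) and ITGAM (0.278), and CSF1R to CD33 (0.242) and the erythroid gene GATA1 (0.273). The distance is built from the highest folds, so windows with low maxima are nearest to each other by construction.

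The depth set what could be called. In the windows a tile of DPF2 replicate 1 needed 19 to 23 reads, a fold of 3.22 to 3.80, to pass, against folds of 3.01 to 3.09 in DPF2 replicate 2 and at most 3.12 in the H3K14cr libraries. A DPF2 rise below that size was not detectable by the call in both libraries. The median fold of member tiles was 0.952 and 0.938 in DPF2, 0.97 and 0.939 in H3K14cr, beside 0.622, 0.682, 0.602 and 0.597 over all tiles in the same order of libraries.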

How the data were processed

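ChIP-seq was measured in 4 libraries of wild-type K562 cells, with group and replicate number taken from the titles. The submitters' processing notes name Bowtie2 and the builds mm9 and hg19; the aligner's version, filters and duplicate treatment are not stated there. The authors' deposited signal values cover bins of 100 bp with at least 1 read, scaled to 10000000 reads and rounded to 2 decimals. Division by the value of 1 read gave whole reads (tolerance 0.005) for all but 22, 3, 4 and 0 values (99.99962%, 99.99997%, 99.99994% and 100% whole).

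Reads were summed in 1 kb tiles, and the enrichment call of the report was applied to all covered tiles. Tiles averaging 10 reads or more over the libraries were compared between antibodies with limma (trend) at an adjusted p of at most 0.05; on log2(CPM + 0.5) fold changes of low tiles are understated. Replicate pairs were compared by chi-square over tiles: per degree of freedom it was 0.943 (DPF2, p = 0.744) and 0.779 (H3K14cr, p = 0.997) in the 5 windows. No molecular identifiers mark PCR copies, so reads are not independent molecules and intervals cover counting error only. Scripts were tested on simulated data.

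The members, the comparison genes and the rules were chosen with earlier results of these data known. A comparison gene of the erythroid list is not reported here. The tiles named are those enriched in both libraries of an antibody, or else the highest by the lower library, those called different between antibodies, and those next to the threshold; others are marked in the text or are start-site tiles. Alternatives covered tile size and borders, background, fold, depth, scaling, pseudocount, filter, test, block and each library left out. The software was R 4.3.3 with limma 3.58.1 and edgeR 4.0.16, and Python 3.11.15 with scipy 1.17.1, pandas 2.3.3, numpy 2.4.6 and, for figures, matplotlib 3.10.9.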

Additional observations from a re-analysis of the deposited data

How the results depend on the processing

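The 3 H3K14cr tiles and 0 DPF2 tiles stood with the surrounding 20 kb alone, with 50 kb and with summed libraries. With the libraries thinned to the depth of the shallowest, 2 H3K14cr tiles (0.302% of all tiles) and 0 DPF2 tiles (0.166%) were called. For H3K14cr the count was 1 with tiles of 500 bp (0.256% of all tiles) and of 2 kb (0.468%), 16 with the chromosome mean alone (2.12%), 6 at a fold of at least 2 (0.6%), 0 at a fold of at least 5 (0.096%), and 3 to 4 with a library left out. For DPF2 it was 1 on tiles shifted by 500 bp, added after seeing the data (1 shared with H3K14cr), 3 with the chromosome mean alone (1.11%), 3 of them shared with H3K14cr, and 0 to 1 with a library left out (1 shared without DPF2 replicate 1). The causes were not tested.

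Against the chromosome mean, DPF2 window levels were 2.17 (SPI1), 1.13 (CEBPA), 1.51 (IRF8), 1.90 (CSF1R) and 1.27 (MPO), and H3K14cr levels 2.76 (SPI1), 1.21 (CEBPA), 1.32 (IRF8) and 1.35 (MPO).

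Against 4 member tiles that differed between antibodies in the report (1.39% of all tiles tested), limma called 0 with median-of-ratios factors (0.532%). There 15 member tiles had an unadjusted p under 0.05. It called 0 on the fold over the local background (0.24%, with 9 such member tiles) and 2 at a mean of at least 5 reads (0.288%). Among enriched tiles only it called 2 of 3, 1 of these not among the 4, beside 35.6% of all such tiles. The 3 passed that filter by their H3K14cr calls in the same libraries, so this count adds no separate support. With 1 library left out, the log2 difference ran from -0.73 to -1.32 in the SPI1 tile that begins at 47413001. It ran from -0.71 to -1.28 in the CEBPA tile. In the SPI1 tiles that begin at 47417001 and 47415001 it ran from -0.85 to -1.07 and from -0.7 to -0.88. An antibody's lone library was taken to vary as the rest do. A pseudocount of 2 CPM gave 4 (1.44% of all tiles tested), edgeR's quasi-likelihood test 4 (1.57%), and edgeR with TMM factors, added after seeing the data, 2 (0.815%). With the replicate number as a block the count was 4 (1.65% of all tiles tested). Samples with the same number did not deviate together (correlation 0.001), and they share only a number. Enrichment of the named tiles was recomputed with shifted borders, with the chromosome mean alone and with each library of the antibody left out. For the shift the higher of 2 overlapping tiles was taken, which was the same for both CEBPA tiles. The 3 enriched tiles kept the call in 12 of 12 such cases. Tile size, thinning and fold, which changed the H3K14cr count as given above, were not among them. The other named tiles gained a call in 5 cases and stayed uncalled in 31. The 4 differences kept theirs in 21 and lost it in 24, in the same direction in each.

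Depth limits DPF2 replicate 1 most, since it held the fewest reads.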
